A study of Homo sapiens with 12 samples.

Results

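Messenger RNA of 40 genes for making ribosomes and for the MYC network was measured in MDA-MB-231 cells, an established human triple-negative breast cancer line, after a day in acid or neutral medium. The genes were chosen by name: MYC, its partner MAX and the repressors MXD4 and MNT, 4 genes of RNA polymerase I and its initiation, and 32 genes of nucleolar proteins that process ribosomal RNA or assemble the subunits. All 40 were found among the 60664 genes of the deposited table, and all 40 were among the 17544 genes with enough reads to test. The wild-type cells had been grown in medium of pH 7.4 to 70 to 80% confluence and then spent 24 h at pH 6.4, pH 6.9 or, as the control, pH 7.4, with 4 libraries, numbered as repeats, for each medium. The labels of the samples give pH 6.9 for the middle medium and the protocol gives 6.7, so it is called pH 6.9 here with that doubt. No label says that the repeats were separate cultures, and the p-values measure only the spread between these samples.

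MYC is a transcription factor that binds DNA as a dimer with MAX, at a short palindrome called the E-box, and genes for building ribosomes are among its best known targets. MXD4 and MNT pair with MAX as well and repress. In the nucleolus, RNA polymerase I transcribes the long ribosomal RNA precursor, small nucleolar ribonucleoproteins (snoRNPs) guide its chemical modification and early cleavage, and large sets of assembly factors carry the precursors of the small and the large ribosomal subunit to export. Cancer cells that grow fast usually keep this programme high.

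The E-box was searched for in the promoters of the 40 genes, since it is the sequence MYC and MAX read. Promoter windows were taken from RefSeq on GRCh38.p14, each from 250 bases before to 50 bases after a start. A gene could have several windows, as RRN3 did, and 33 of the 40 genes were covered. BOP1, MYC, NOLC1, NOP58, RRP12, RRP1B and RRS1 were not. A gene was counted if any of its windows held the motif. The 6 letters CACGTG, which read the same on both strands, were present for 17 of the 33 genes (51.5%). They were present for 8.77% of all 27305 genes with a window and for 12.1% of the 11525 of these tested here. Among 92 other genes of RNA polymerase I, snoRNPs and subunit assembly the share was 27.2%. In 14 of the 17 genes an E-box lay within 40 bases of a start. The variant CACGCG, searched on both strands, is a separate motif that a gene may carry as well as an E-box. It was present for 9 of the 33 genes (27.3%), 13.5% of all, 21.8% of those tested here and 32.6% of the 92 related genes. A match describes letters in the window and is not evidence of binding.

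Promoter stretches of 4 genes are shown because these genes were called in at least 1 comparison and carry an E-box near a start. Each runs 5′ to 3′ on the gene's strand, from 40 bases before to 20 bases after a RefSeq start, with the E-box in capitals. GNL3 lies at chr3:52685992-52686051 on the plus strand, UTP20 at chr12:101280065-101280124 on the plus strand, UTP4 at chr16:69132609-69132668 on the plus strand and GNL2 at chr1:37595918-37595977 on the minus strand.
GNL3: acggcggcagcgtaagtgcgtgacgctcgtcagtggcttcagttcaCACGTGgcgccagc
GNL2: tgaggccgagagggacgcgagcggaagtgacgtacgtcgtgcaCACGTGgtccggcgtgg
UTP20: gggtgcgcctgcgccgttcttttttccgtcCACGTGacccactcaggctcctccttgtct
UTP4: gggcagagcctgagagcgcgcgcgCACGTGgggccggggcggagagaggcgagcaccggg
The 4 genes did not move together at pH 6.4, as their values below show: GNL3 and GNL2 were higher in at least 1 comparison and UTP20 and UTP4 were lower.

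Libraries held 31118831 to 50643233 counted reads at pH 6.4, 27018171 to 49803831 at pH 6.9 and 21060767 to 47644714 at pH 7.4, and the 40 genes took 0.388 to 0.461% of them. Genes with at least 1 read numbered 17841 in pH 7.4 repeat 1 and 21628 in pH 6.9 repeat 2, against 23113 to 27384 in the other libraries. The first principal component of all tested genes (40.6% of the variance) set pH 7.4 repeat 1 apart, and on the second (25%) pH 6.4 repeat 3 lay at -2.63 while the other pH 6.4 libraries lay at 39.5 to 67.0. The line's marker VIM stood at 1580 to 2810 CPM. Of 8 luminal or epithelial breast markers, ESR1, PGR and FOXA1 had a median of 0 and CDH1 of 0.684 CPM. The others had more: KRT19 219 to 314 CPM, ERBB2 66.8 to 97.5, EPCAM 14.8 to 24.3 and GATA3 8.73 to 21.2. Endothelial markers (5 genes) summed to 13.5 to 17.9 CPM at pH 6.4, 11.1 to 14.1 at pH 6.9 and 9.54 to 17.3 at pH 7.4. The leukocyte marker CD3E was at 0 in all 12 libraries. Summed CPM of 6 fibroblast markers were 25.6 to 38.4 at pH 6.4, 36 to 61.1 at pH 6.9 and 49 to 83.1 at pH 7.4, with DCN at 0 in 9 libraries, and those of 6 leukocyte markers were 2.02 to 3.27 at pH 6.4, 3.58 to 5.55 at pH 6.9 and 4.46 to 7.03 at pH 7.4. Their part in the results was not tested.

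At pH 6.4, MYC messenger RNA was higher and that of POLR1A, the gene for the largest subunit of RNA polymerase I, was lower than at pH 7.4. Among the assembly genes GNL3 and RRP12 were higher, and NOP56, UTP4, UTP20, RRS1 and NIP7 were lower. In all, 3 of the 40 genes rose and 6 fell, by edgeR's quasi-likelihood test with a Benjamini-Hochberg adjusted p under 0.05 over all genes tested. That is 22.5% of the 40, while 30.3% of all tested genes were called (15.6% higher and 14.7% lower). The median absolute log2 fold change was 0.192 in the 40 genes and 0.338 in all genes. Differences over 1.5-fold were found for 2 of the 40 genes, MYC and GNL3, both upward, and for 28.2% of all genes in either direction.

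Between pH 6.4 and pH 6.9, 6 of the 40 genes were higher at pH 6.4 (MYC, GNL3, GNL2, NOB1, NOLC1 and RRP12) and 1 was lower (POLR1A). This is 17.5% of the 40, against 17% of all genes (8.83% higher and 8.2% lower). Between pH 6.9 and pH 7.4, edgeR called 0 of the 40, where the background was 0.724% of all genes. There 4 of the 40 had an unadjusted p under 0.05 (RRP9, UTP4, UTP20 and BYSL), as did 11.9% of all genes. DESeq2 called 0 of the 40 as well, and 2.88% of all genes. The pH 7.4 libraries serve in 2 of these comparisons and the pH 6.4 and pH 6.9 libraries also in 2 each, so the comparisons are not independent.

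Counts depended on single libraries. Without pH 6.4 repeat 3, 9 genes were higher and 5 lower against pH 7.4 (18.2% and 17.6% of all genes), and 15 were higher and 2 lower against pH 6.9 (13.8% and 13.8%). Without pH 6.4 repeat 1, pH 7.4 repeat 3 or pH 7.4 repeat 4, 3 were lower against pH 7.4, while 24.4 to 26.3% of all genes were called in either direction. Against pH 6.9, 2 were higher without pH 6.4 repeat 2 or repeat 4, where 6.54% and 6.85% of all genes were called. Without any 1 of the pH 6.9 repeats 3 were higher, beside 8.79 to 11.8% of all genes, and without pH 7.4 repeat 1, 2 were lower, beside 21.4%. Same-numbered samples deviated together in both comparisons with pH 6.4. Some samples of unlike number did too, so it is not settled that the numbers pair the samples. With the repeat as a block, 10 genes were higher and 9 lower at pH 6.4 against pH 7.4 (21.4% and 20.2% of all genes), and 13 were higher and 5 lower against pH 6.9 (16.1% and 15%). In both directions together that is 47.5% of the 40 against 41.6% of all genes for pH 7.4, and 45% against 31.1% for pH 6.9, so the order of the 2 shares against pH 7.4 turned round with the block. The genes added against pH 7.4 were DDX21, DKC1, GNL2, LYAR, MNT, NOB1 and NOLC1 upward, and NCL, NOP58 and UBTF downward. Those added against pH 6.9 were DDX21, LYAR, MNT, NAT10, NOP16, PES1 and WDR75 upward, and NOP56, RRS1, UBTF and UTP20 downward.

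**Figure D1:**
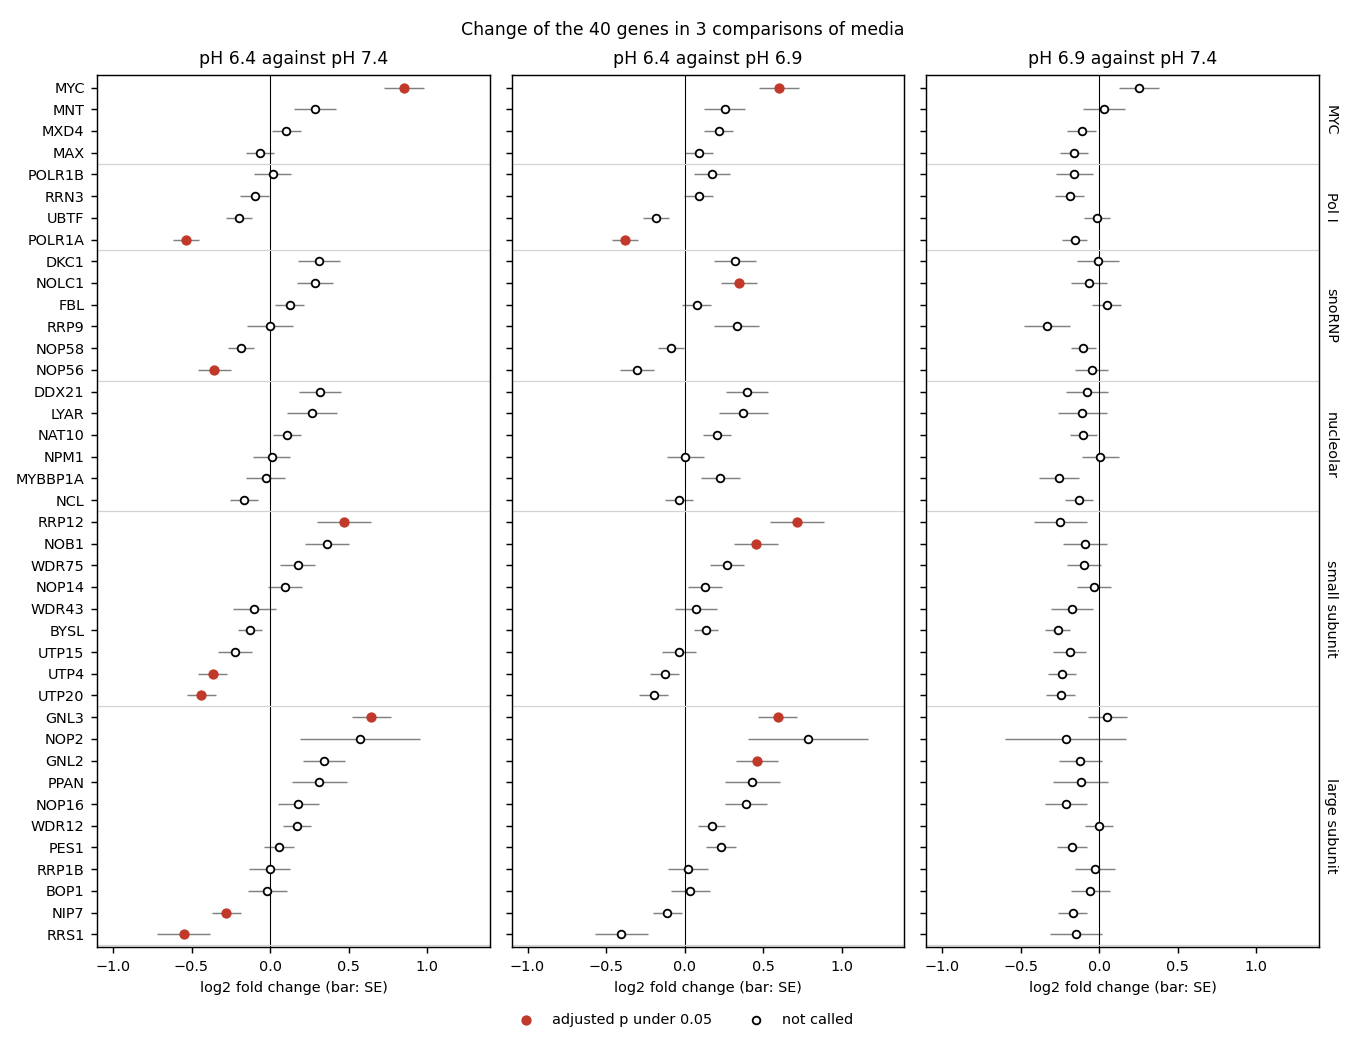
Log2 fold change of each of the 40 genes (points) with its SE (bars) in 3 comparisons of media, grouped by role, with filled points for an adjusted p under 0.05. The left panel has 3 filled points above 0 and 6 below it, the middle panel 6 and 1, and the right panel, pH 6.9 against pH 7.4, has none and most points lie left of 0.

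MYC, at chr8:127735434-127741434 on the plus strand (GRCh38, GENCODE 29), had the largest rise of the 40 genes at pH 6.4 against pH 7.4. Its level was 182, 255, 195 and 279 CPM in the pH 6.4 libraries, 136, 141, 152 and 172 CPM at pH 6.9, and 115, 122, 127 and 140 CPM at pH 7.4. CPM are read counts scaled to a common library size, here in the order of repeats 1 to 4. Every pH 6.4 library was above every library of both other media, while pH 6.9 and pH 7.4 overlapped. The rise was 1.81-fold against pH 7.4 (log2 fold change 0.85, SE 0.13, adjusted p = 0.000301) and 1.52-fold against pH 6.9 (0.60, SE 0.13, adjusted p = 0.00803). Against pH 6.9, RRP12 had a larger log2 fold change (0.72), as did NOP2 (0.78), which was not called (adjusted p = 0.177). For pH 6.9 against pH 7.4 the log2 fold change was 0.25 (SE 0.13, adjusted p = 0.467). Both calls at pH 6.4 held in all 12 fits that left out 1 library. In repeats 1 and 2 alone the log2 fold change against pH 7.4 was 0.89, and in repeats 3 and 4 alone 0.84. In repeats 3 and 4 alone the call for MYC against pH 6.9 was lost, at 0.56 (adjusted p = 0.215), where the background was 0%. The counts are a share of all messenger RNA in a library, so a change in total RNA per cell cannot be told apart from these values.

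The partner and the repressors of MYC had smaller differences that did not pass the test. MAX had 51.7, 59.3, 49.9 and 60.2 CPM at pH 6.4, 49.5, 47, 55.5 and 55.2 CPM at pH 6.9, and 56.9, 55.8, 56.3 and 62.3 CPM at pH 7.4. The pH 6.9 libraries were all below the pH 7.4 libraries. The pH 6.4 range covered most of the pH 7.4 range, and the log2 fold change between them was -0.07 (95% interval -0.26 to 0.13, adjusted p = 0.624). MXD4, an alternative partner of MAX, had 79.1, 85.1, 79.6 and 96.5 CPM at pH 6.4, 70.6, 72.3, 82.4 and 67.7 CPM at pH 6.9, and 87.4, 75, 80.9 and 73.1 CPM at pH 7.4. Its 3 groups overlapped, with 0.10 (95% interval -0.09 to 0.30, adjusted p = 0.428) for pH 6.4 against pH 7.4.

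MNT, a broadly expressed repressor of the same network, had 30.2, 31.7, 35.5 and 38.7 CPM at pH 6.4, 25.5, 25.1, 34 and 29.4 CPM at pH 6.9, and 24.1, 24.3, 32.4 and 30.9 CPM at pH 7.4. Repeats 3 and 4 were the higher ones in every medium. The groups at pH 6.4 and pH 7.4 thus overlapped, although each pH 6.4 library exceeded the pH 7.4 library of the same number. For pH 6.4 against pH 7.4 its log2 fold change was 0.28 (SE 0.13, adjusted p = 0.121). With the repeat as a block MNT was called at 0.29 (adjusted p = 0.00784), and against pH 6.9 at 0.26 (adjusted p = 0.0202). The order of the 3 means, pH 6.4 above pH 6.9 above pH 7.4, was shared by MYC, MNT, FBL, NPM1 and GNL3 and by no other gene of the 40.

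**Figure D2:**
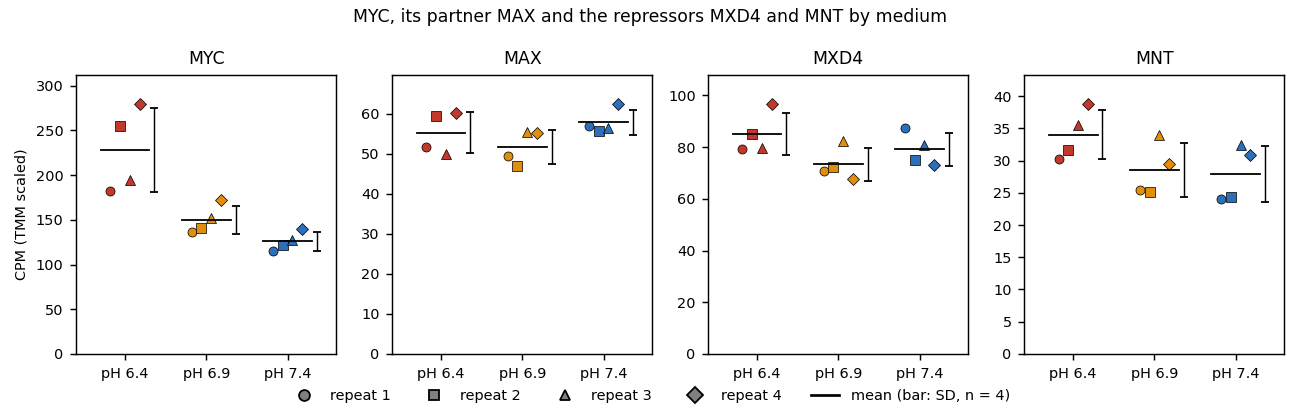
CPM of MYC, MAX, MXD4 and MNT in each library (points, shaped by repeat) at pH 6.4, pH 6.9 and pH 7.4, with the mean and SD of 4 libraries. The MYC points at pH 6.4 (182 to 279 CPM) stand above all others. In the panels of MAX, MXD4 and MNT the pH 6.4 points overlap those of both other media, and for MAX all pH 6.9 points lie below those of pH 7.4.

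At pH 6.4 against pH 7.4, 15.6% of all genes were higher and 14.7% lower. Of 8 further tested genes of the MYC, MAX and MLX network, 1 was higher and 0 were lower in that comparison. This gene was MLXIP, known as MondoA, a glucose-responsive partner of MLX, at 121 ± 20.9 CPM at pH 6.4 and 89.5 ± 6.62 CPM at pH 7.4 (SD, n = 4; log2 fold change 0.43, adjusted p = 0.00843 by edgeR). MYCN had too few reads to test. Of 12 tested genes that act on the amount or stability of MYC, 4 were higher and 1 lower. PIM1, a kinase, had 99.5 ± 15.3 CPM at pH 6.4 and 51 ± 4.49 CPM at pH 7.4 (SD, n = 4; 0.96, adjusted p = 5.72e-05 by edgeR). AURKA, the mitotic Aurora A kinase, had 218 ± 31.8 CPM at pH 6.4 and 144 ± 12.1 CPM at pH 7.4 (SD, n = 4; 0.60, adjusted p = 0.000691 by edgeR). FBXW7, which marks MYC protein for destruction, was also higher, with 41.1 ± 9.23 CPM at pH 6.4 and 25 ± 2.19 CPM at pH 7.4 (SD, n = 4; 0.72, adjusted p = 0.00146 by edgeR). MYC protein itself was not measured.

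Among the 4 RNA polymerase I genes 1 fell and 0 rose at pH 6.4 against pH 7.4, beside 14.7% and 15.6% of all genes. POLR1A, at chr2:86020216-86106155 on the minus strand, encodes the catalytic largest subunit. It had 85.5, 77.8, 93.4 and 80.7 CPM at pH 6.4, 103, 108, 106 and 122 CPM at pH 6.9, and 115, 118, 126 and 131 CPM at pH 7.4. Every pH 6.4 library lay below every library of both other media. Expression was 1.45-fold lower at pH 6.4 than at pH 7.4 (log2 fold change -0.54, SE 0.08, adjusted p = 0.000349) and 1.3-fold lower than at pH 6.9 (-0.38, SE 0.08, adjusted p = 0.00865). Both calls held in all 12 fits that left out 1 library. In repeats 3 and 4 alone, POLR1A had -0.38 against pH 6.9 (adjusted p = 0.215), and the call was lost, where 0% of all genes were called.

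The other genes of this role were not called. UBTF, the factor that keeps ribosomal DNA open and recruits the polymerase, had 75.5, 68.8, 82.8 and 83.6 CPM at pH 6.4, 83.2, 81.5, 90.9 and 96.3 CPM at pH 6.9, and 87.8, 90.8, 84.2 and 92.8 CPM at pH 7.4. All 4 pH 6.4 libraries lay below the 4 at pH 7.4, by a small margin, and the log2 fold change was -0.20 (SE 0.08, adjusted p = 0.0904). With the repeat as a block UBTF was called at -0.20 (adjusted p = 0.0236), and against pH 6.9 at -0.18 (adjusted p = 0.0477). POLR1B, the second subunit, had a log2 fold change of 0.02 (95% interval -0.23 to 0.27), and RRN3, the initiation factor that carries the growth signal to the polymerase, had -0.10 (95% interval -0.30 to 0.10).

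Of 12 other RNA polymerase I genes, 3 were higher and 2 lower at pH 6.4 against pH 7.4, beside 15.6% and 14.7% of all genes. The median log2 fold change of the 12 was 0.02. POLR1H, a small subunit of the enzyme, had 29.3 ± 8.1 CPM at pH 6.4 and 16.4 ± 3.35 CPM at pH 7.4 (SD, n = 4; 0.84, adjusted p = 0.00431 by edgeR). TAF1D, of the promoter selectivity factor, had 196 ± 43.8 CPM at pH 6.4 and 119 ± 13.8 CPM at pH 7.4 (SD, n = 4; 0.72, adjusted p = 0.00179 by edgeR). POLR1G, another subunit, was lower, with 17.3 ± 2.09 CPM at pH 6.4 and 24.9 ± 4.54 CPM at pH 7.4 (SD, n = 4; -0.52, adjusted p = 0.0131 by edgeR). Subunits of the same enzyme thus moved in both directions. Other annotated genes overlap 45.1% of the exon bases of POLR1G, 24.5% of POLR1H and 17.3% of TAF1D. Their values are uncertain for that reason.

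Among the 6 snoRNP genes, 1 fell and 0 rose at pH 6.4 against pH 7.4, beside 14.7% and 15.6% of all genes. NOP56, a scaffold of the particles that guide methylation of ribosomal RNA, had 124, 133, 150 and 127 CPM at pH 6.4, 160, 154, 172 and 173 CPM at pH 6.9, and 135, 162, 193 and 191 CPM at pH 7.4. The pH 6.4 libraries lay below all pH 6.9 libraries and overlapped pH 7.4 through its repeat 1. NOP56 differed by a log2 fold change of -0.35 against pH 7.4 (SE 0.11, adjusted p = 0.0225) and -0.31 against pH 6.9 (SE 0.11, adjusted p = 0.0644), where the fit with the repeat as a block called it (adjusted p = 0.0104). The call against pH 7.4 was lost without pH 6.4 repeat 1, 2 or 4 or pH 7.4 repeat 3 or 4, where NOP56 had -0.35 to -0.29 (adjusted p = 0.0519 to 0.077). Small nucleolar RNAs and MIR1292 lie on 8.74% of the NOP56 exon bases on the same strand, so part of its reads could belong to them.

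NOLC1, a nucleolar phosphoprotein that accompanies snoRNPs, was called only against pH 6.9. It had 202, 266, 175 and 259 CPM at pH 6.4, 161, 178, 182 and 189 CPM at pH 6.9, and 181, 179, 186 and 195 CPM at pH 7.4. Repeats 1, 2 and 4 at pH 6.4 were above every other library, and pH 6.4 repeat 3 lay among the others. NOLC1 had a log2 fold change of 0.35 against pH 6.9 (SE 0.11, adjusted p = 0.0498) and 0.28 against pH 7.4 (SE 0.11, adjusted p = 0.074), and with the repeat as a block the second was called as well (adjusted p = 0.0359). The first call was kept only without pH 6.4 repeat 3. In each of the other 11 fits without 1 library NOLC1 had 0.26 to 0.40 (adjusted p = 0.0514 to 0.179). FBL, the methyltransferase of these particles, NOP58, RRP9 and DKC1, the pseudouridine synthase, had log2 fold changes of -0.19 to 0.31 against pH 7.4 and were not called.

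Of 14 other snoRNP and assembly genes, 1 was higher and 1 lower at pH 6.4 against pH 7.4, beside 15.6% and 14.7% of all genes. SNU13, which binds the fold of the guide RNA, had 133 ± 17.8 CPM at pH 6.4 and 111 ± 6.48 CPM at pH 7.4 (SD, n = 4; 0.26, adjusted p = 0.0485 by edgeR). RPAP3, an assembly cofactor, had 52.5 ± 2.62 CPM at pH 6.4 and 69.2 ± 8.06 CPM at pH 7.4 (SD, n = 4; -0.40, adjusted p = 0.0111 by edgeR). Of 17 host genes of small nucleolar RNAs, which the annotation gives no protein except for SNHG32, 2 were higher and 1 lower. SNHG16 had 64.6 ± 13.8 CPM at pH 6.4 and 36.6 ± 1.53 CPM at pH 7.4 (SD, n = 4; 0.82, adjusted p = 0.000463 by edgeR). GAS5 had a log2 fold change of 0.67 (adjusted p = 0.00422) and DANCR of -0.46 (adjusted p = 0.00327). Other annotated genes overlap 33.4% of the SNHG16 exon bases and 11.9% of those of DANCR.

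Of the 6 genes for multifunctional proteins of the nucleolus, edgeR called 0 in each comparison when the repeat was not a block. With the block it called 3 of the 6 at pH 6.4 against pH 7.4 (DDX21, LYAR and NCL), beside 41.6% of all genes. Against pH 6.9 it called 3 of the 6 (DDX21, LYAR and NAT10), beside 31.1%. An unadjusted p under 0.05 was reached by 1 of the 6 (DDX21) at pH 6.4 against pH 7.4, where 41.1% of all genes reached it. Against pH 6.9 it was reached by 3 (DDX21, LYAR and NAT10), where 31.4% of all genes did. DESeq2 called 0 of the 6 against pH 7.4 and 1 against pH 6.9, beside 34.8% and 22.4% of all genes. For pH 6.9 against pH 7.4 both counts were 0. NPM1, the chaperone nucleophosmin, was the most abundant of the 40 per length of exon, at 172 CPM per kilobase over the 12 libraries, followed by NCL at 88.2. NPM1 had 668, 796, 565 and 617 CPM at pH 6.4, 716, 749, 561 and 612 CPM at pH 6.9, and 662, 740, 612 and 612 CPM at pH 7.4. Repeat 2 was the highest library in every medium, and the 3 groups overlapped almost fully. The log2 fold change for pH 6.4 against pH 7.4 was 0.01, with a 95% interval of -0.24 to 0.26. NPM1 has 45 pseudogene copies by symbol, and the sources used here do not state how reads that match several places were counted.

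NCL, the RNA-binding protein nucleolin, had 581, 673, 505 and 571 CPM at pH 6.4, 630, 634, 538 and 587 CPM at pH 6.9, and 675, 667, 610 and 661 CPM at pH 7.4. Only pH 6.4 repeat 2 reached the level of the pH 7.4 libraries, and the log2 fold change was -0.17 (SE 0.09, adjusted p = 0.186). With the repeat as a block it was called at -0.17 (adjusted p = 0.0185). DDX21, a helicase at ribosomal DNA and in the processing complex, had 329, 450, 272 and 407 CPM at pH 6.4, 265, 286, 266 and 290 CPM at pH 6.9, and 241, 299, 313 and 318 CPM at pH 7.4. Repeats 2 and 4 at pH 6.4 were far above the rest. The log2 fold change was 0.32 against pH 7.4 (SE 0.13, adjusted p = 0.0868) and 0.40 against pH 6.9 (SE 0.13, adjusted p = 0.0542). With the repeat as a block both were called, at 0.30 (adjusted p = 0.0366) and 0.38 (adjusted p = 0.0177). DDX21 is outside the naming rule and was chosen after its values were seen.

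Of the 9 genes for the small subunit, 1 was higher and 2 lower at pH 6.4 against pH 7.4. The shares of all genes were 15.6% and 14.7%. UTP20 and UTP4 belong to the large complex that first folds the small subunit precursor. UTP20 had 60.7, 57.1, 57.1 and 64.8 CPM at pH 6.4, 70.8, 66.5, 63.4 and 73.9 CPM at pH 6.9, and 70.2, 78.8, 82.7 and 93.4 CPM at pH 7.4. All pH 6.4 libraries were below all pH 7.4 libraries, and pH 6.9 overlapped both. Expression was 1.36-fold lower (log2 fold change -0.44, SE 0.09, adjusted p = 0.00283). UTP4 had 58, 60.2, 55.8 and 63 CPM at pH 6.4, 64.9, 58, 66.3 and 69.6 CPM at pH 6.9, and 75.1, 65.4, 80.4 and 84.3 CPM at pH 7.4. Its groups at pH 6.4 and pH 7.4 did not overlap either, at -0.37 (SE 0.09, adjusted p = 0.0076). Against pH 6.9, UTP20 had -0.20 (adjusted p = 0.161), which was called with the repeat as a block (adjusted p = 0.0491). Both calls against pH 7.4 held in all 12 fits without 1 library, and in repeats 1 and 2 alone they were lost, at -0.33 for UTP20 (adjusted p = 0.0554) and -0.24 for UTP4 (adjusted p = 0.163).

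RRP12, which is needed for export and late maturation of the small subunit, changed in the other direction. It had 44.9, 62.8, 32.2 and 59.5 CPM at pH 6.4, 30.1, 28.4, 29.5 and 33.2 CPM at pH 6.9, and 29.3, 35.4, 38.3 and 40.7 CPM at pH 7.4. Repeats 1, 2 and 4 at pH 6.4 were above all other libraries, and pH 6.4 repeat 3 was not. The rise was 1.64-fold against pH 6.9 (log2 fold change 0.72, SE 0.17, adjusted p = 0.0132) and 1.39-fold against pH 7.4 (0.47, SE 0.17, adjusted p = 0.0493). The call against pH 6.9 was lost without pH 6.4 repeat 2 or repeat 4, at 0.59 and 0.62 (adjusted p = 0.0526 and 0.0535). The call against pH 7.4 was kept only without pH 6.4 repeat 3 or pH 7.4 repeat 4, and in the other 10 such fits RRP12 had 0.34 to 0.52 (adjusted p = 0.0561 to 0.171).

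NOB1, the nuclease that makes the final cut of the small subunit RNA, had 44.9, 58, 38.7 and 56.5 CPM at pH 6.4, 33.3, 36.7, 36.2 and 38.5 CPM at pH 6.9, and 30.3, 37.2, 41.2 and 45.4 CPM at pH 7.4. All pH 6.4 libraries were above all pH 6.9 libraries, with pH 6.4 repeat 3 just above pH 6.9 repeat 4. For NOB1 the log2 fold change was 0.45 against pH 6.9 (SE 0.14, adjusted p = 0.0391) and 0.36 against pH 7.4 (SE 0.14, adjusted p = 0.0635), the second being called with the repeat as a block (adjusted p = 0.0182). The first call was lost without pH 6.4 repeat 2 or 4, any pH 6.9 repeat, or pH 7.4 repeat 2 or 3, where NOB1 had 0.37 to 0.49 (adjusted p = 0.0537 to 0.139). An antisense gene, AC092115.3, overlaps 20.2% of its exon bases, and the sources used here do not state the strand setting of the counting.

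BYSL, bystin, a factor of the late small subunit precursor, had the smallest p of the 40 genes for pH 6.9 against pH 7.4. It had 77.5, 80.1, 65.6 and 80.5 CPM at pH 6.4, 64.6, 71.9, 69.8 and 69.8 CPM at pH 6.9, and 83.3, 82.2, 83 and 82.9 CPM at pH 7.4. The pH 7.4 libraries lay close together, above every library of both other media. The log2 fold change was -0.26 for pH 6.9 against pH 7.4 (SE 0.08, unadjusted p = 0.00419, adjusted p = 0.149 by edgeR). NOP14 had 79.8, 92.9, 84.4 and 101 CPM at pH 6.4, 72.4, 78.7, 82.1 and 94.8 CPM at pH 6.9, and 73.1, 79.8, 88.2 and 94.3 CPM at pH 7.4. Its level differed more between repeats than between media, with a log2 fold change of 0.10 (95% interval -0.13 to 0.32) for pH 6.4 against pH 7.4.

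Of 38 other tested genes for the small subunit, 4 were higher and 6 lower at pH 6.4 against pH 7.4. The shares of all genes were 15.6% and 14.7%. IMP3, a protein of the U3 particle, had 24.9 ± 2.02 CPM at pH 6.4 and 37.2 ± 0.886 CPM at pH 7.4 (SD, n = 4; -0.58, adjusted p = 0.000278 by edgeR). DDX49, a helicase, had 25.9 ± 1.36 CPM at pH 6.4 and 37.1 ± 2.75 CPM at pH 7.4 (SD, n = 4; -0.52, adjusted p = 0.000591 by edgeR). DIMT1, a methyltransferase of the small subunit RNA, was higher, with 58.8 ± 8.3 CPM at pH 6.4 and 39.3 ± 8.36 CPM at pH 7.4 (SD, n = 4; 0.58, adjusted p = 0.00999 by edgeR). Here too genes of the same assembly line moved both ways. Genes on the other strand overlap 59.3% of the IMP3 exon bases, so its value is uncertain.

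**Figure D3:**
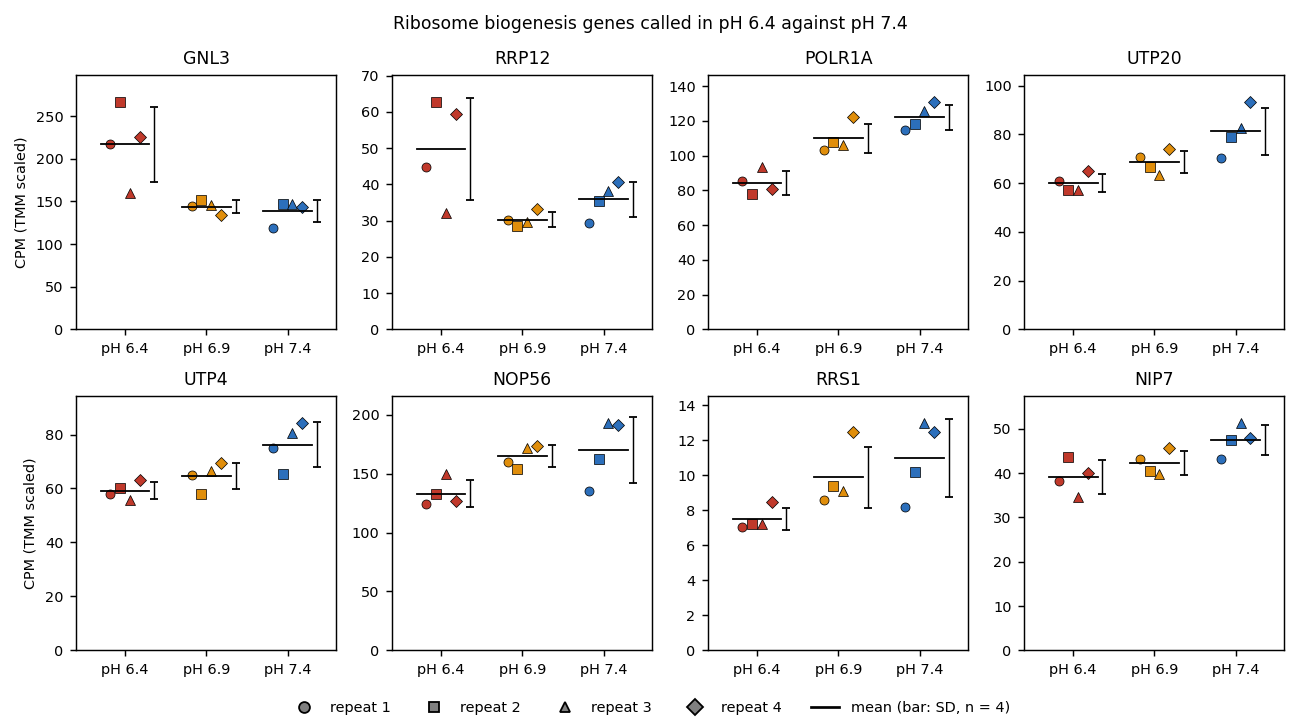
CPM in each library (points, shaped by repeat) of the 8 genes besides MYC that were called at pH 6.4 against pH 7.4, with the mean and SD of 4 libraries per medium. GNL3 is above both other media in all 4 pH 6.4 libraries and RRP12 in all but repeat 3, and POLR1A, UTP20, UTP4, NOP56, RRS1 and NIP7 have their lowest mean at pH 6.4.

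Of the 11 genes for the large subunit, 1 was higher and 2 lower at pH 6.4 against pH 7.4. The shares of all genes were 15.6% and 14.7%. GNL3, nucleostemin, is a GTP-binding nucleolar protein that is abundant in stem and tumour cells and acts in large subunit assembly. It lies at chr3:52681156-52694492 on the plus strand (GENCODE 29). It had 217, 267, 160 and 226 CPM at pH 6.4, 145, 152, 146 and 134 CPM at pH 6.9, and 119, 147, 147 and 143 CPM at pH 7.4. Every pH 6.4 library was above every other library, with repeat 3 the closest to them. The rise was 1.56-fold against pH 7.4 (log2 fold change 0.64, SE 0.13, adjusted p = 0.00163) and 1.51-fold against pH 6.9 (0.59, SE 0.12, adjusted p = 0.00791). Both calls held in all 12 fits without 1 library. In repeats 3 and 4 alone, GNL3 had 0.42 against pH 7.4 (adjusted p = 0.131) and 0.48 against pH 6.9 (adjusted p = 0.223), and both calls were lost. There 8.9% and 0% of all genes were called.

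GNL2, a related GTP-binding protein of the same pathway, had 94.2, 133, 74.5 and 115 CPM at pH 6.4, 78.2, 79.2, 72.5 and 72.2 CPM at pH 6.9, and 90.5, 78.9, 78.2 and 80.6 CPM at pH 7.4. Repeats 1, 2 and 4 at pH 6.4 were above all other libraries, while repeat 3 was not. Its log2 fold change was 0.46 against pH 6.9 (SE 0.14, adjusted p = 0.032) and 0.34 against pH 7.4 (SE 0.14, adjusted p = 0.0691), where the repeat as a block gave 0.32 (adjusted p = 0.0455). The first call was lost without pH 6.4 repeat 2 or 4 or any pH 6.9 repeat, where GNL2 had 0.32 to 0.49 (adjusted p = 0.0544 to 0.119).

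RRS1, which helps bring the small RNA of the large subunit into place, had 7.07, 7.25, 7.21 and 8.46 CPM at pH 6.4, 8.62, 9.38, 9.12 and 12.5 CPM at pH 6.9, and 8.22, 10.2, 13 and 12.5 CPM at pH 7.4. All pH 6.4 libraries were below all pH 6.9 libraries, and pH 7.4 repeat 1 fell among the pH 6.4 values. The log2 fold change was -0.55 against pH 7.4 (SE 0.17, adjusted p = 0.0226) and -0.40 against pH 6.9 (SE 0.17, adjusted p = 0.113), where the repeat as a block gave -0.39 (adjusted p = 0.0311). The call against pH 7.4 was lost without pH 6.4 repeat 1 or 2 or pH 7.4 repeat 3 or 4, where RRS1 had -0.53 to -0.46 (adjusted p = 0.0583 to 0.0754). Its counts were 247 to 562 per library, and another gene overlaps 11.4% of its exon bases on the same strand.

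NIP7, a factor that binds the ribosomal RNA precursor, had 38.1, 43.6, 34.7 and 40 CPM at pH 6.4, 43.2, 40.4, 39.7 and 45.6 CPM at pH 6.9, and 43.1, 47.5, 51.3 and 48 CPM at pH 7.4. The groups at pH 6.4 and pH 7.4 overlapped through repeat 2 of the first and repeat 1 of the second. For pH 6.4 against pH 7.4 NIP7 had a log2 fold change of -0.28 (SE 0.09, adjusted p = 0.0322). The call was lost without pH 6.4 repeat 1, 3 or 4 or pH 7.4 repeat 2, 3 or 4, where NIP7 had -0.29 to -0.22 (adjusted p = 0.0606 to 0.102). COG8, on the other strand, overlaps 20.2% of its exon bases.

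The remaining large subunit genes were not called. BOP1, PES1 and WDR12, which form 1 complex, had log2 fold changes of -0.02, 0.06 and 0.17 at pH 6.4 against pH 7.4. NOP2, a methyltransferase, was listed at 0.29 to 1.44 CPM (10 to 53 reads), and another gene overlaps 54.4% of its exon bases on the same strand. For PPAN that share was 59.8%, through P2RY11 and the readthrough gene PPAN-P2RY11. The values of NOP2 and PPAN are uncertain for that reason. Of the 40 genes, 23 share some exon bases with another annotated gene, 9 of them on the same strand.

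Of 40 other genes for the large subunit, 3 were higher and 6 lower at pH 6.4 against pH 7.4. The shares of all genes were 15.6% and 14.7%. LSG1, a GTPase of the last cytoplasmic steps, had 38.3 ± 2.53 CPM at pH 6.4 and 62.7 ± 2.48 CPM at pH 7.4 (SD, n = 4; -0.71, adjusted p = 3.36e-05 by edgeR). RSL24D1, an early placeholder protein, had 83.5 ± 14.1 CPM at pH 6.4 and 48.5 ± 6.91 CPM at pH 7.4 (SD, n = 4; 0.78, adjusted p = 0.000483 by edgeR). NOP53 had 76.4 ± 6.51 CPM at pH 6.4 and 49 ± 2.04 CPM at pH 7.4 (SD, n = 4; 0.64, adjusted p = 0.000194 by edgeR). As among the 40 genes, the list moved in both directions, with a median log2 fold change of -0.04.

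Of 22 known MYC targets outside the nucleolus, 6 were higher (CAD, CCND2, EIF4A1, GART, IMPDH2 and SHMT2) and 6 lower at pH 6.4 against pH 7.4. CCND2, cyclin D2, had the largest log2 fold change of the list (3.31, adjusted p = 0.00244 by edgeR), at 1.46 to 8.31 CPM at pH 6.4 and 0 to 0.825 CPM at pH 7.4. Its mean at pH 6.4, 4.75 CPM, is under the 5 CPM of the naming rule, and the 6 higher genes are named after their values were seen. Other genes on the same strand overlap 48.6% of the exon bases of EIF4A1 and 13.8% of those of CCND2. The 3 genes that the rule names were all lower. TFRC, the receptor for iron-loaded transferrin, had 264 ± 22.8 CPM at pH 6.4 and 503 ± 5 CPM at pH 7.4 (SD, n = 4; -0.93, adjusted p = 3.81e-06 by edgeR). LDHA, the lactate dehydrogenase of glycolysis, had 1960 ± 361 CPM at pH 6.4 and 3100 ± 220 CPM at pH 7.4 (SD, n = 4; -0.66, adjusted p = 0.00111 by edgeR), and E2F2, a cell cycle transcription factor, had -0.71 (adjusted p = 0.0272 by edgeR). Over all 8 lists, 24 of 163 tested genes were higher and 23 lower at pH 6.4 against pH 7.4, beside 15.6% and 14.7% of all genes. Against pH 6.9, 19 were higher and 12 lower, beside 8.83% and 8.2%. For pH 6.9 against pH 7.4, 0 were higher and 2 lower, beside 0.724% of all genes in either direction.

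**Figure D4:**
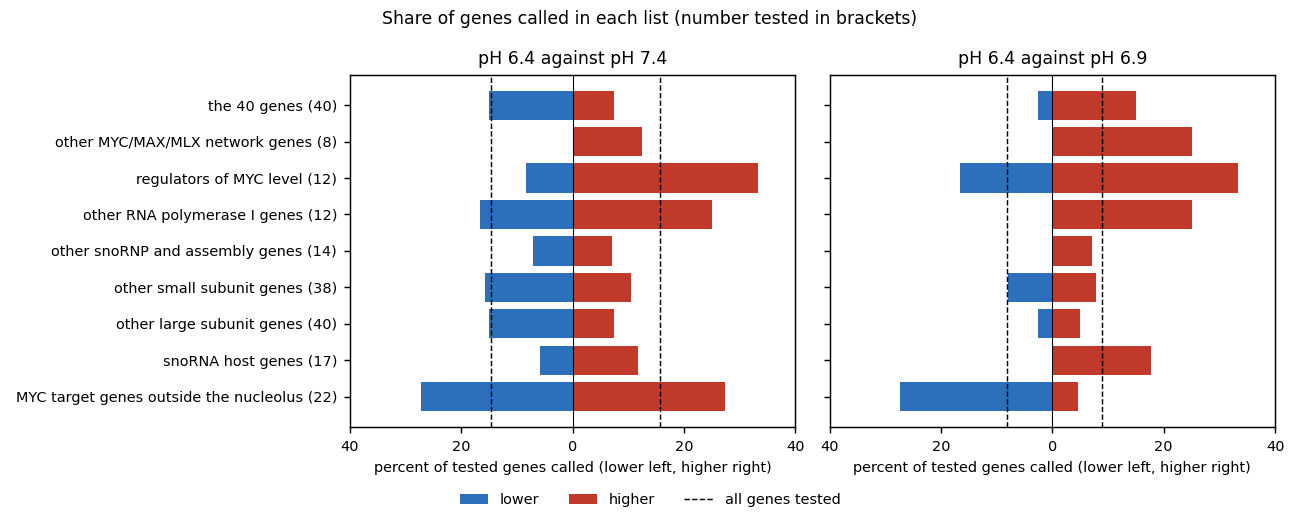
Percent of tested genes called lower (left of 0) and higher (right of 0) at pH 6.4 in the 40 genes and in 8 lists of related genes, against pH 7.4 (left panel) and pH 6.9 (right panel), with dashed lines at the share of all genes. The 40 genes have 3 of 40 higher and 6 of 40 lower in the left panel, both near or below the lines.

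Across the 3 media the 40 genes most often had their lowest mean at pH 6.9. The lowest mean was at pH 6.9 for 25 of the 40 (62.5%, against 20.7% of all genes), at pH 6.4 for 10 (25%, against 42.5%) and at pH 7.4 for 5 (12.5%, against 36.8%). In 34 of the 40 the log2 fold change for pH 6.9 against pH 7.4 was below 0, where 48.2% of all genes were, and its median was -0.12. Subunit and snoRNP genes outside the 40 were also mostly lower at pH 6.9 than at pH 7.4. The log2 fold change was above 0 in 5 of 38 other small subunit genes (median -0.11), 8 of 40 other large subunit genes (median -0.08) and 4 of 14 other snoRNP genes (median -0.07). The other lists differed. It was above 0 in 6 of 8 other network genes (median 0.06) and 10 of 12 genes that act on MYC (median 0.09). For snoRNA host genes it was 8 of 17, for other RNA polymerase I genes 5 of 12, and for MYC targets outside the nucleolus 9 of 22. In 30 of the 40 the log2 fold change for pH 6.4 against pH 6.9 was above 0, with a median of 0.17. Of all genes, 51.4% were below 0 there, with a median of -0.01. Scaled by library size alone, 25 of the 40 were above 0 with a median of 0.09, and the median of all genes was -0.09. For pH 6.4 against pH 7.4 the median of the 40 was 0.04, and -0.05 when libraries were scaled by size alone. With that scaling the median of all genes was -0.08. These counts are a description: the genes share libraries and are not independent.

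The dip at pH 6.9 was small for each gene. Set against the midpoint of pH 6.4 and pH 7.4 on the log2 scale, the median of the 40 genes was -0.15 and the lowest values were -0.50 for NOP2 and -0.48 for RRP12. Neither edgeR nor DESeq2 called any of the 40 there. The background was 0% of all genes by edgeR and 0.445% by DESeq2. By unadjusted p under 0.05, 9 of the 40 passed (BYSL, GNL2, GNL3, MYBBP1A, NOB1, NOP16, PES1, RRP12 and RRP9), as did 11.5% of all genes. Without pH 6.4 repeat 3, 6 of the 40 were called, all lower at pH 6.9 (BYSL, GNL2, GNL3, NOP16, RRP12 and RRP9), against 2.83% of all genes lower.

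By the median coefficient of variation, the libraries at pH 6.4 differed among themselves more than those of the other media did. On the first principal component of all genes pH 7.4 spread most, with repeat 1 at -144.7 and its other libraries at -7.24 to 5.33, while pH 6.4 lay at 23.3 to 36.4. The median coefficient of variation of the 40 genes was 12% at pH 6.4, 7.51% at pH 6.9 and 9.14% at pH 7.4, and that of all genes was 17.2%, 13.1% and 15.8%. At pH 6.4, repeat 3 was the lowest library for 26 of the 40 genes (30.6% of all genes), repeat 2 the highest for 20 and repeat 4 for 18. The median deviation of the 40 genes from their own 12-library mean was 0.01, 0.17, -0.15 and 0.19 (log2) in repeats 1 to 4 at pH 6.4. It was -0.15, -0.09, -0.09 and -0.04 at pH 6.9, and -0.04, -0.02, 0.05 and 0.13 at pH 7.4. Repeat 3 at pH 6.4 was thus as low for these genes as the pH 6.9 libraries were. MYC in that library, at 195 CPM, was still above every pH 6.9 and pH 7.4 library.

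**Figure D5:**
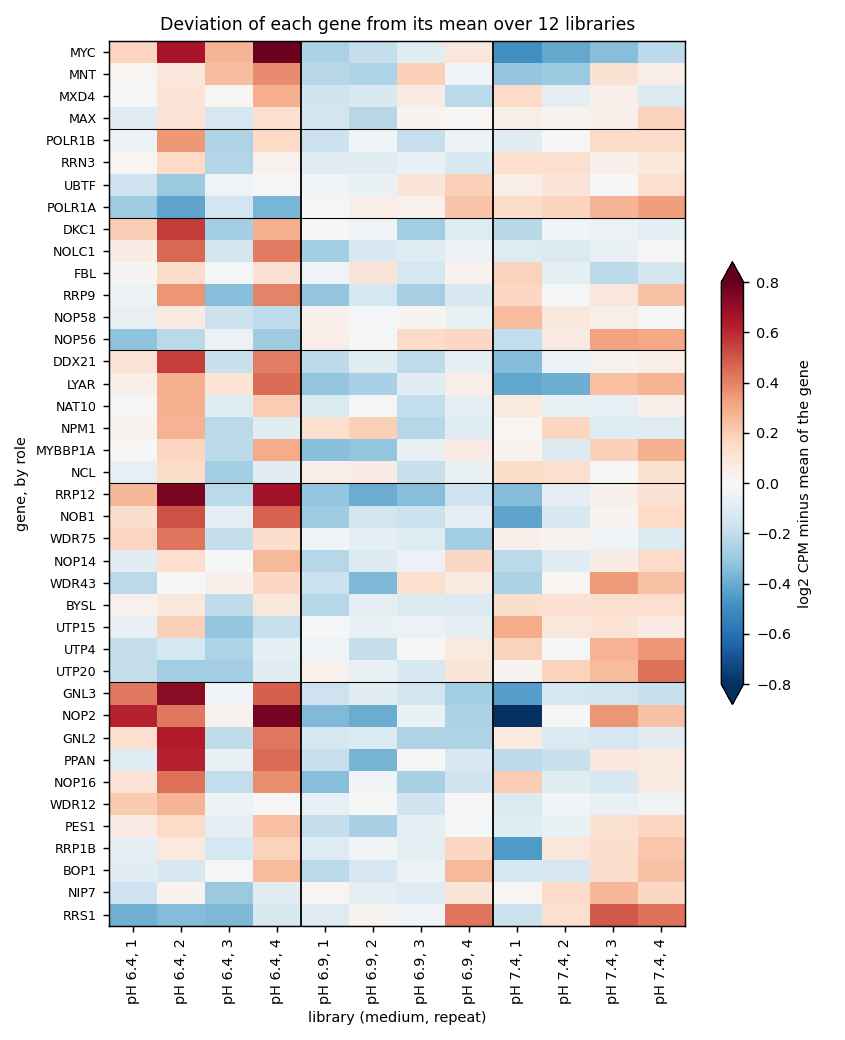
Deviation of each of the 40 genes (rows, by role) from its own mean over 12 libraries (columns, by medium and repeat), in log2 CPM, red above and blue below the mean. Repeats 2 and 4 at pH 6.4 are mostly red, repeat 3 at pH 6.4 and the pH 6.9 libraries are mostly pale or blue, and POLR1A, UTP4, UTP20, NOP56 and RRS1 run the other way at pH 6.4.

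Genes with and without an E-box in any promoter window were both mixed in direction. Of the 17 with one, 1 was higher (GNL3) and 2 were lower (UTP4 and UTP20) at pH 6.4 against pH 7.4, with a median log2 fold change of 0.10 and a range of -0.44 to 0.64. Of the 16 without one, 0 were higher and 3 lower, with a median of -0.03 and a range of -0.54 to 0.36. Of all genes, 15.6% were higher and 14.7% lower in that comparison. Against pH 6.9 the counts were 2 higher and 0 lower of 17 with an E-box, and 1 higher and 1 lower of 16 without. There 8.83% of all genes were higher and 8.2% lower. No difference between these groups was tested.

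Counts of genes whose libraries do not overlap use no model and name partly other genes than the test did. Every pH 6.4 library was above every pH 7.4 library for 2 of the 40 genes (MYC and GNL3) and below for 5 (POLR1A, UBTF, UTP4, UTP20 and BYSL), against 14.4% and 13.5% of all genes. For pH 6.4 against pH 6.9 this held upward for 4 (MYC, GNL3, NOB1 and NOP2) and downward for 3 (POLR1A, NOP56 and RRS1), against 9.64% and 10.8%. For pH 6.9 against pH 7.4 it held upward for 0 and downward for 5 (MAX, RRN3, RRP9, UTP15 and BYSL), against 5.18% and 4.91% of all genes. The 5 genes are 12.5% of the 40.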

How the data were processed

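The authors deposited 1 table of raw counts of reads per gene for 12 libraries. Per the labels' protocols, total RNA went through a stranded poly(A) library kit and a NextSeq500, and per the submitters' processing notes STAR aligned the reads to GRCh38.p13 and featureCounts counted them. The sources used here state no versions, strand setting or handling of reads with several matches.

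The counts were tested with edgeR 4.0.16 in R 4.3.3 (filterByExpr, TMM scaling, robust quasi-likelihood test, 3 media in 1 fit with 9 residual degrees of freedom), and p-values were Benjamini-Hochberg adjusted over all 17544 tested genes and called under 0.05. Adjusted p-values are edgeR's where the text names no tool. CPM were scaled with TMM, and 95% intervals use the test's own error. Alternatives were DESeq2 1.42.0, other scaling and filters, the repeat as a block, subsets of repeats, and leaving out each library. The fit was tested on simulated counts.

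The 40 genes and the 8 lists of related genes (166 genes, 163 tested) were chosen with earlier results of these data known. Values of every library are given for the 4 MYC network genes, each called gene and the 2 most abundant genes of each role. From each list, the up to 3 largest changes among called genes are named, if the higher mean reached 5 CPM. Exon lengths and coordinates are from GENCODE 29, promoters from RefSeq.

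Same-numbered samples deviated together in all 4 pairs at pH 6.4 and pH 7.4 (r = 0.113 to 0.262). At pH 6.4 and pH 6.9 they did so too (r = 0.264 to 0.47), and each sample's largest r was with its own number. At pH 6.9 and pH 7.4 r was 0.0798 to 0.352. Samples of unlike number also deviated together. With pH 7.4 repeat 2, r was 0.214 for pH 6.4 repeat 1 and 0.247 for pH 6.9 repeat 1, above their values with pH 7.4 repeat 1 (0.113 and 0.0798). Between media, repeats 1 and 2 went together, as did repeats 3 and 4, so pairing by single number is not settled. Across the 66 pairs of libraries at least 22391 genes differed in count, so no library was a copy.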

Additional observations from a re-analysis of the deposited data

Results flagged for a closer look

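Among the 60 groups of 4 libraries formed by the 20 named genes and the 3 media, 2 held a library far from the other 3, where about 1 in 20 is flagged by chance. GNL3 in pH 7.4 repeat 1 stood at 119 CPM, below the 143 to 147 CPM of the other pH 7.4 libraries, with a gap of 0.861 of the group's range. This is the library with the fewest detected genes, and its part in the value was not tested. Without it GNL3 was still called higher at pH 6.4 against pH 7.4. RRS1 in pH 6.4 repeat 4 stood at 8.46 CPM, above the 7.07 to 7.25 CPM of the other pH 6.4 libraries, with a gap of 0.871 of the range.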

How the results depend on the processing

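In no alternative did a called gene change sign. Over the 20 named genes, 3 comparisons and 21 alternatives, 1153 values stayed on their side of the threshold, 79 lost a call and 28 gained one. Scaled by library size alone, 2 of the 40 genes were higher and 11 lower at pH 6.4 against pH 7.4, beside 30.2% of all genes called. Against pH 6.9, 4 were higher and 2 lower (16.2%). The median of all genes moved to -0.08 and -0.09. With the repeat as a block, 10 genes were higher and 9 lower at pH 6.4 against pH 7.4, beside 41.6% of all genes called. Against pH 6.9, 13 were higher and 5 lower (31.1%). For pH 6.9 against pH 7.4 the block gave 0 higher and 1 lower (BYSL), beside 5.4% of all genes. In repeats 1 and 2 alone, 7 were higher and 1 lower at pH 6.4 against pH 7.4, beside 22% of all genes called. Against pH 6.9, 6 were higher and 1 lower (10.6%). In repeats 3 and 4 alone, 1 was higher and 4 lower against pH 7.4, beside 8.9%. Against pH 6.9 those repeats gave 0 higher and 0 lower, where 0% of all genes were called. Without pH 7.4 repeat 1 and pH 6.9 repeat 2 together, 5 were higher and 2 lower at pH 6.4 against pH 6.9, beside 16.3% of all genes. Leaving out each library gave 2 to 9 higher and 3 to 6 lower for pH 6.4 against pH 7.4 (21.2 to 35.8% of all genes). For pH 6.4 against pH 6.9 it gave 2 to 15 higher and 1 to 2 lower (6.54 to 27.6%). For pH 6.9 against pH 7.4 it gave 0 in both directions (0.218 to 1.71%). For pH 6.9 against the midpoint it gave 0 to 6 (0 to 6.19%). The cause of these moves was not tested. The subsets also held fewer samples. Over all genes, the midpoint test called 0 by edgeR, 78 by DESeq2 and 1109 without pH 6.4 repeat 3. Counts of 10 to 53 reads limit NOP2. The 8 lists of related genes were not refitted under these alternatives.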
